A study of Rattus norvegicus with 6 samples.

Results

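The troponin and tropomyosin genes measured here were Tnnc1, Tnni1, Tnni3, Tnnt1, Tnnt2, Tpm1, Tpm2, Tpm3 and Tpm4, and their members were all rows of the deposited mRNA table whose RefSeq transcript belongs to one of these 9 rat genes, out of 13201 named genes with a matched probe. The rule found 26 rows among 20734, and each of the 26 was matched to 1 probe of the array. Tpm1 had 12 of them, Tnnt1 had 4, Tpm3 had 3, Tpm2 had 2, and each of the other genes had 1. Ventricular myocytes from newborn Sprague-Dawley rats, between 1 and 3 days old, were kept in medium without serum and then left untreated (control, n = 3) or given 10 µM isoproterenol, a synthetic agonist of beta-adrenergic receptors, for 24 h (n = 3). The labels call the treated cells hypertrophic and name no transgene or deletion. The cells were primary cultures from which fibroblasts had been allowed to attach first and were left behind, so some non-muscle cells can remain. The labels also speak of passages, and the series text of transfected replicates, without further detail. Nothing says whether the replicates of a group came from separate litters or cell preparations, and the p-values cover only the spread among these arrays, which may be technical.

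Troponin and tropomyosin are the switch of the thin filament. Tropomyosin lies along the actin filament as a coiled coil and covers the sites where myosin heads bind, and the troponin complex moves it when calcium rises. Troponin C binds the calcium, troponin I holds the filament in the off state, and troponin T ties the complex to tropomyosin. In the rodent heart the slow skeletal troponin I (Tnni1) gives way to the cardiac form (Tnni3) around birth, and the cardiac form carries an extra stretch at its start that protein kinase A phosphorylates after beta-adrenergic stimulation. The tropomyosin genes each make several proteins through alternative promoters and exons, some of them for the sarcomere and others for the cytoskeleton of all cells.

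The layout and signal of the arrays bear on every value below. Scan times and array positions in the file headers place the control arrays and isoproterenol replicate 1 on one slide, called slide 1 here, and isoproterenol replicates 2 and 3 on another, called slide 2. On slide 1 between 97.7% and 99.8% of the matched mRNA probes were well above background, against 61.3% and 70.9% on slide 2. The signal at the 75th percentile lay between 547 and 599 scanner units on slide 1 and was 207 and 249 on slide 2. Levels are given as log2 signal relative to that percentile of the same array, and changes as isoproterenol minus control on the log2 scale with the standard error (SE) of the limma model. A probe is said to have risen or fallen where the adjusted p of limma's moderated test, corrected over all 20639 matched mRNA probes by the Benjamini-Hochberg method, was under 0.05. Because slide and treatment partly coincide, the difference between isoproterenol replicate 1 and the 3 controls, all on slide 1, is given beside the change over 6 arrays. With 1 isoproterenol array in it, that value borrows its error from the spread of the controls. A fit with slide as a block gives the same difference, because all controls lie on slide 1. The slide 2 arrays then add only to the estimate of its error, so the block is not a separate check of the change. Probes differ in how they bind, so a difference between the levels of different probes says nothing of which transcript was more abundant. In bulk RNA, fewer cells of a type and less RNA per cell cannot be told apart.

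Of the 26 probes 3 rose, 0 fell and 23 did not pass. The 3 were the probe of Tpm4, a cytoskeletal tropomyosin, at 1.19 ± 0.20 (SE), a dim probe of Tpm1 at 1.15 ± 0.23 and the brighter probe of Tpm2 at 0.74 ± 0.19. Among all mRNA probes 15.9% passed, with 9.96% of all probes higher and 5.95% lower, so 3 of 26 is no larger a share than the background. In 7 of the 26 the values of the groups did not overlap, against 41.2% of all probes. No cardiac troponin probe passed over 6 arrays with all matched probes tested. Within slide 1 the number that passed was 0 of 26, against 5.23% of all probes, and with slide as a block it was also 0, against 7.04%. The unadjusted p was under 0.05 for 8 of the 26 over all 6 arrays, against 35.7% of all probes. One array could decide the count: 16 of the 26 passed without isoproterenol replicate 1, which leaves all treated arrays on slide 2, but so did 51.8% of all probes. Without control replicate 2, control replicate 3 or isoproterenol replicate 3 the count was 0, against 2.53%, 1.87% and 4.17% of all probes. It was 2 without control replicate 1 and 1 without isoproterenol replicate 2, against 7.22% and 6.31%. Among the 21 member probes well above background on all arrays, tested with only such probes, 5 passed, against 34.3% of all. Tnnc1 and the brightest Tnnt1 probe were among these 5 (limma's adjusted p = 0.0405 and 0.0425). This filter acts mostly through slide 2, which held only isoproterenol arrays, so it favours probes that are high with isoproterenol. Among all probes kept the median change was 0.20, against 0.06 without the filter. The changes of Tnnc1 and Tnnt1 were the same with and without it, so their passing is no separate support.

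The signs depended on the scaling. Of the 26 changes 20 were above 0 with a median of 0.37, against 17 above 0 and a median of 0.11 within slide 1, and 12 above 0 and a median of −0.11 in the authors' deposited values. The median of all mRNA probes was 0.06, 0.11 and −0.08 in these 3 cases. Among all probes 2056 rose and 1228 fell. With normexp background correction these counts were 2113 and 762 and the median was 0.37, and with the percentile taken over probes detected on all arrays they were 1381 and 2016 and the median was −0.18.

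**Figure D1:**
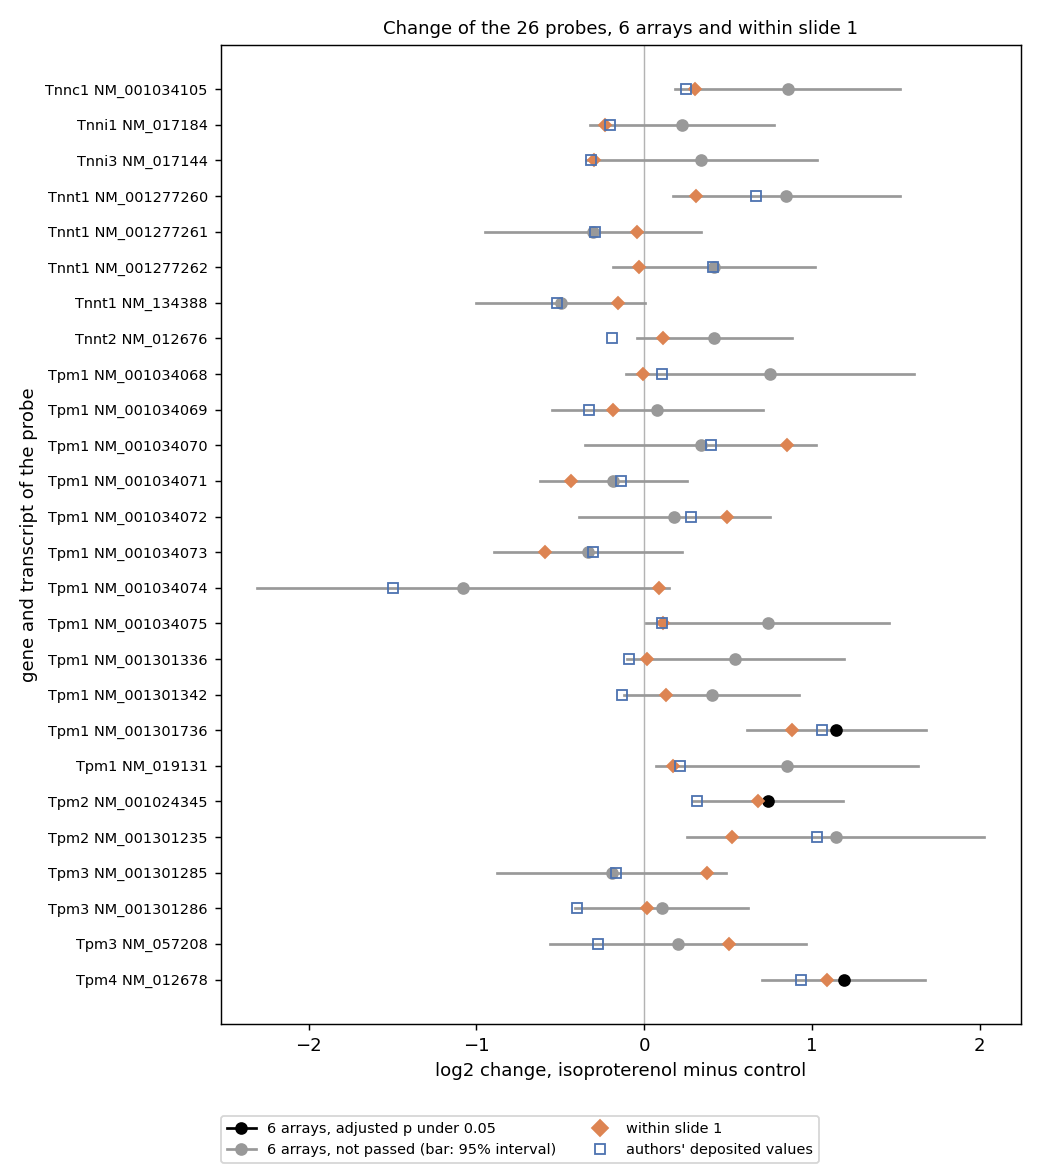
Log2 change of each of the 26 probes, isoproterenol minus control, over 6 arrays with its 95% interval, within slide 1, and in the authors' deposited values. The 3 black points at 1.19 (Tpm4), 1.15 (Tpm1 NM_001301736) and 0.74 (Tpm2 NM_001024345) passed the test over 6 arrays, and all 3 estimates of each of them lie above 0.

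Among the 26 probes 13 lay in the brightest 10% of mRNA probes, and signal itself moved with the change. The median change over 6 arrays was 0.50 in the brightest 10% of all mRNA probes, −0.23 in the third such class counted from the dimmest, and 0.06 over all. On the slide 2 arrays alone the brightest 10% lay 0.70 above the controls at the median, whereas within slide 1 it lay 0.18 above. The 13 member probes of that class had a median change of 0.42 over 6 arrays, 0.66 on slide 2, 0.09 within slide 1 and −0.13 in the authors' deposited values. A positive change of a bright member therefore stands beside a similar shift of all bright probes, and the part of slide in it was not tested.

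**Figure D2:**
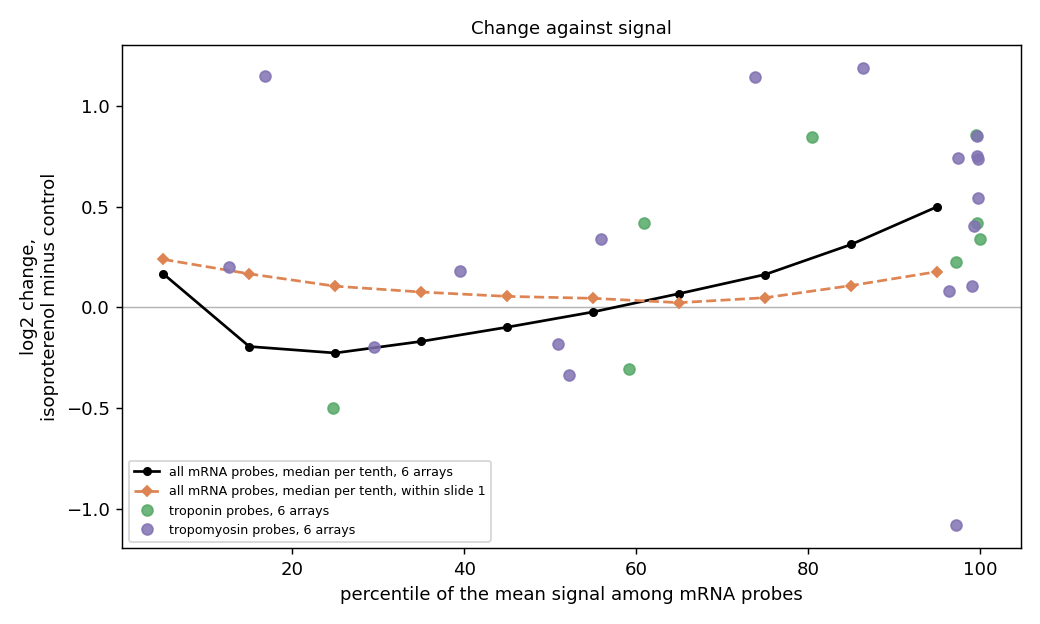
Log2 change over 6 arrays of each troponin and tropomyosin probe against the percentile of its mean signal, with the median of all mRNA probes in each 10% step of signal over 6 arrays and within slide 1. The median of all probes rises to 0.50 in the brightest 10% over 6 arrays but is 0.18 there within slide 1, and 13 member probes lie in that class.

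Troponin C of the heart and of slow muscle is encoded by Tnnc1, the calcium sensor of the complex. Its probe read 7.60, 7.23 and 7.47 in the controls, 7.73 in isoproterenol replicate 1 and 8.38 and 8.75 in replicates 2 and 3. The isoproterenol values all lay above the controls, the slide 2 arrays by most. The change was 0.86 ± 0.28 (adjusted p = 0.0811), and within slide 1 it was 0.30 (adjusted p = 0.362).

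Neither troponin I form passed the test. Tnni3, which encodes the cardiac inhibitory subunit, read 8.74, 8.64 and 8.56 in the controls and 8.34, 9.36 and 9.25 with isoproterenol. Replicate 1 was the lowest of the 6 arrays and the slide 2 arrays were the highest, so the groups overlapped. The change was 0.34 ± 0.29 (adjusted p = 0.421, 95% interval −0.35 to 1.03), against −0.30 within slide 1 (adjusted p = 0.27) and −0.32 in the deposited values. Tnni1, the slow skeletal form that prevails in the fetal heart, behaved alike in its array order. It read 5.95, 6.10 and 6.00 in the controls and 5.78, 6.47 and 6.46 with isoproterenol. Its change was 0.22 ± 0.23 (adjusted p = 0.51, 95% interval −0.33 to 0.77), with −0.23 within slide 1 (adjusted p = 0.358) and −0.20 in the deposited values. For both genes, then, the sign depended on the scaling and the slide.

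Tnnt2, the cardiac troponin T that anchors the complex, read 7.75, 7.68 and 7.69 in the controls, an SD of 0.04, and 7.82, 8.38 and 8.17 with isoproterenol. Its groups did not overlap, but replicate 1 lay only just above the controls. The change was 0.42 ± 0.19 (adjusted p = 0.172), 0.11 within slide 1 (adjusted p = 0.615) and −0.19 in the deposited values. Tnnt1, the slow skeletal troponin T, had 4 probes, and they did not move together. The brightest, for NM_001277260, read 2.01, 1.82 and 1.58 in the controls and 2.11, 3.11 and 2.73 with isoproterenol, a change of 0.85 ± 0.28 (adjusted p = 0.0844) and of 0.31 within slide 1 (adjusted p = 0.391). The probe for NM_001277262 was at 0.42 ± 0.25 (adjusted p = 0.27) and that for NM_001277261 at −0.31 ± 0.27 (adjusted p = 0.437). The dimmest, for NM_134388, was at −0.50 ± 0.21 (adjusted p = 0.142), and neither slide 2 array was well above background for it. Within slide 1 the Tnnt1 probes ranged from −0.16 to 0.31.

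**Figure D3:**
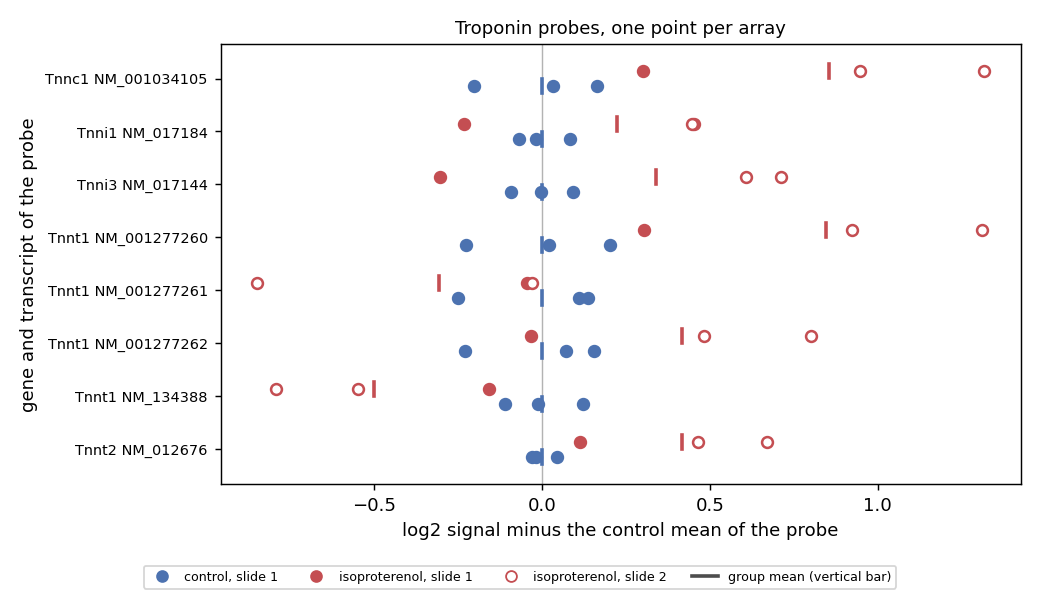
Log2 signal of the 8 troponin probes on each array, minus the probe's control mean, with filled points for slide 1 and open points for slide 2. The open points lie to the right of every other point for Tnnc1, Tnni1, Tnni3, Tnnt2 and the Tnnt1 probes NM_001277260 and NM_001277262. For Tnni1, Tnni3 and Tnnt1 NM_134388 the filled isoproterenol point lies to the left of the controls.

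On the chromosome the troponin I and T genes measured here lie in pairs of an I and a T form, while Tnnc1 lies apart on chromosome 16. In the RefSeq gene table of assembly GRCr8, Tnni3 is the neighbour of Tnnt1 on chromosome 1, and Tnni1 and Tnnt2 lie on chromosome 13 with the gene Lad1 between them. Each pair so joins a cardiac form with a slow skeletal one. In neither pair did a brightest probe pass: Tnni3 was at 0.34 and Tnnt1 at 0.85, and Tnni1 was at 0.22 and Tnnt2 at 0.42.

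Tpm4 showed the largest change of the 26 probes. The gene encodes a short tropomyosin of cytoskeletal actin filaments, found in many cell types. It read 3.02, 2.46 and 2.57 in the controls and 3.77, 3.87 and 3.97 with isoproterenol. All isoproterenol arrays, on either slide, lay above all controls, and they differed among themselves by less than the controls did (SD 0.10 against 0.30). The change was 1.19 ± 0.20 (adjusted p = 0.0137), or 2.28-fold. Within slide 1 it was 1.09 (adjusted p = 0.0872), with slide as a block 1.09 (adjusted p = 0.0647), and in the authors' deposited values 0.94 (adjusted p = 0.0336). Leaving out control replicate 2, control replicate 3 or isoproterenol replicate 3 gave adjusted p = 0.0747, 0.0804 and 0.059, with changes of 1.08, 1.13 and 1.14.

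Tpm2, beta-tropomyosin, is a form of slow skeletal and smooth muscle. Its brighter probe, for NM_001024345, read 6.09, 5.68 and 5.81 in the controls and 6.54, 6.49 and 6.76 with isoproterenol. The groups did not overlap, and replicate 1 lay between the slide 2 arrays. It rose by 0.74 ± 0.19 (adjusted p = 0.0421), with 0.68 within slide 1 (adjusted p = 0.133) and 0.32 in the deposited values (adjusted p = 0.276). With slide as a block the change was 0.68 and did not pass (limma's adjusted p = 0.136). It also missed the threshold without any one of control replicates 1, 2 and 3 (adjusted p = 0.0671, 0.166 and 0.167) and without isoproterenol replicate 2 or 3 (adjusted p = 0.088 and 0.14). The second Tpm2 probe, for NM_001301235, read 1.21, 0.47 and 0.30 in the controls and 1.18, 2.40 and 1.82 with isoproterenol. Control replicate 1 and isoproterenol replicate 1 were nearly level, and the change of 1.14 ± 0.37 did not pass (adjusted p = 0.0793).

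The sequences before the start of Tpm4 and Tpm2 are shown because these are the genes of the family with a rise on a probe well above background on all arrays. Both come from RefSeq, build GRCr8, and cover the 250 bases before the start, written 5′ to 3′ on the strand of the gene, which is the minus strand for both. The Tpm4 sequence lies at chr16:17732484-17732733 and the Tpm2 sequence at chr5:62575727-62575976. Capitals mark matches to TGACG, the core of a cAMP response element, on either strand.
Tpm4: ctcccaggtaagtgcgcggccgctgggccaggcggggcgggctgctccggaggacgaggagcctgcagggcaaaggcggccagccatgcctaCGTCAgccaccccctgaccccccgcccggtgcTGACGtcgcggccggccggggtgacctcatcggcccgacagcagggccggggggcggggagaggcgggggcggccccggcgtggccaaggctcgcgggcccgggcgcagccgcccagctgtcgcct
Tpm2: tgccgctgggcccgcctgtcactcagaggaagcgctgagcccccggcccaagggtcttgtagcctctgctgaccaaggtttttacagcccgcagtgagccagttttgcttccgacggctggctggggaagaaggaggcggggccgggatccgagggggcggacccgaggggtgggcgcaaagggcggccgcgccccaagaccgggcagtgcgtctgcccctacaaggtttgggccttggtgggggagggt

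The Tpm4 window held TGACG at 2 places, 158 and 126 bases before the start, and the Tpm2 window at 0. It also stood at 1 place in the windows of Tnnt1 and Tpm1 and in some windows of Tpm3, genes whose brightest probes did not pass. The windows of Tnni1, Tnni3 and Tnnt2 lacked it. This motif was found in 18.2% of all 33469 windows of that length in the table. Tpm4 and Tpm2 both lacked CATTCC, the core of the M-CAT element of muscle promoters (12.1% of all windows), the CArG box bound by serum response factor (1.50%) and TATAAA (12.9%). The letters GGGCGG, a GC box, stood at 5 places in the Tpm4 window and 2 in that of Tpm2, against 1 or more in 30.5% of all windows. CANNTG, the E-box, had 1 match in the Tpm4 window and 0 in that of Tpm2, and 65.5% of all windows held it. All motifs were searched on both strands, overlapping matches were allowed, and a match read on both strands was counted once. A match is a description of letters only.

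**Figure D4:**
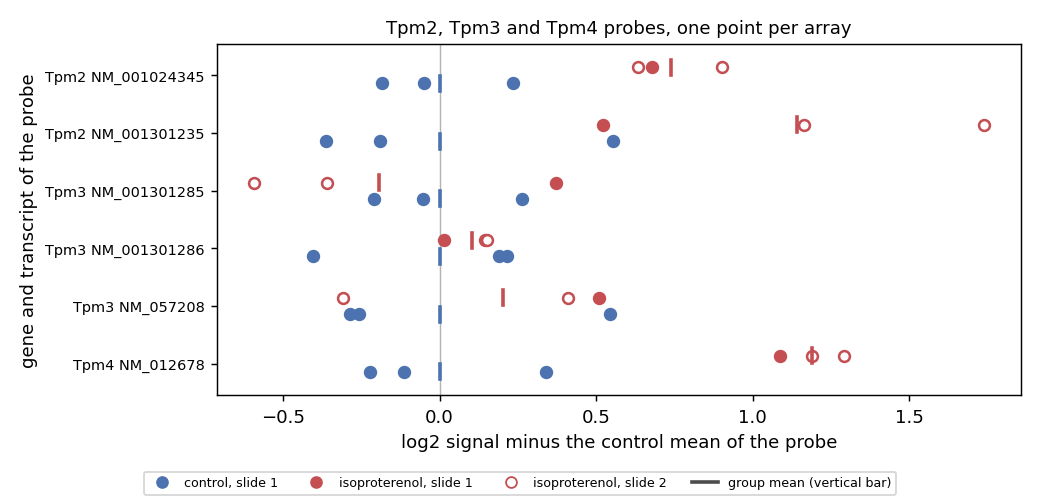
Log2 signal of the Tpm2, Tpm3 and Tpm4 probes on each array, minus the probe's control mean, with filled points for slide 1 and open points for slide 2. For Tpm4 and for Tpm2 NM_001024345 the filled isoproterenol point lies with the open ones and apart from the controls, and for the Tpm3 probes the groups overlap.

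Tpm3 encodes slow skeletal and cytoskeletal tropomyosins, and none of its 3 probes passed. The bright probe, for NM_001301286, read 7.59, 6.97 and 7.56 in the controls and 7.39, 7.52 and 7.52 with isoproterenol. The isoproterenol values lay inside the range of the controls, with a change of 0.10 ± 0.22 (adjusted p = 0.752, 95% interval −0.41 to 0.62). The other probes, for NM_001301285 and NM_057208, were dim, with changes of −0.19 ± 0.29 (adjusted p = 0.65) and 0.20 ± 0.32 (adjusted p = 0.674). On neither slide 2 array was either of them well above background.

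Tpm1 encodes alpha-tropomyosin, the main sarcomeric tropomyosin of the rodent heart, and its 12 probes fell into a bright and a dim set. Which exon each probe reads is not given in the files used here, so a probe named for a transcript may also bind others of the gene. In the brightest 10% of mRNA probes lay 7 of them, and none of these passed, with adjusted p from 0.116 to 0.847. The brightest of all, for NM_001034075, read 8.10, 7.59 and 7.72 in the controls and 7.92, 8.95 and 8.75 with isoproterenol. Replicate 1 lay among the controls and the slide 2 arrays above them, giving 0.74 ± 0.31 (adjusted p = 0.136) and 0.11 within slide 1 (adjusted p = 0.776). The probes for NM_001034068, NM_001301336, NM_001301342 and NM_019131 likewise had replicate 1 within the range of the controls and both slide 2 arrays above it, with changes of 0.75, 0.54, 0.40 and 0.85. Within slide 1 all 7 bright probes lay between −0.19 and 0.17.

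One bright Tpm1 probe went the other way on slide 2 alone. The probe for NM_001034074 read 6.96, 6.46 and 6.65 in the controls and 6.78 in isoproterenol replicate 1, but 4.59 and 5.46 in replicates 2 and 3. On slide 1 the treated array lay among the controls, at 0.09 (adjusted p = 0.818), while the slide 2 arrays lay 1.66 below the control mean. Over 6 arrays the change was −1.08 ± 0.52 (adjusted p = 0.181), and in the deposited values it was −1.50. The bright probe for NM_001034069 was at 0.08 ± 0.26 (adjusted p = 0.847).

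**Figure D5:**
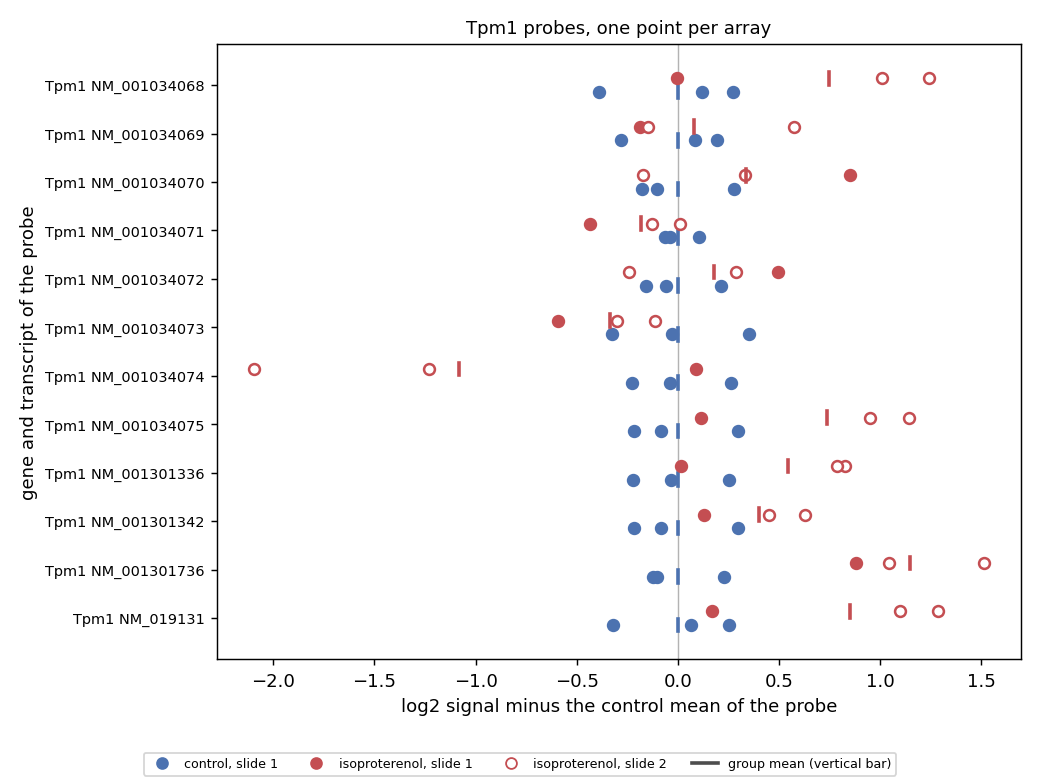
Log2 signal of the 12 Tpm1 probes on each array, minus the probe's control mean, with filled points for slide 1 and open points for slide 2. The open points of NM_001034074 lie far to the left while its filled isoproterenol point lies among the controls, and only for NM_001301736 do all isoproterenol points lie apart from the controls.

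Among the 5 dimmer Tpm1 probes the one for NM_001301736 rose. It read −4.37, −4.70 and −4.72 in the controls and −3.72, −3.09 and −3.55 with isoproterenol, without overlap. The change was 1.15 ± 0.23 (adjusted p = 0.0202), and it was 0.88 within slide 1 (adjusted p = 0.0796). The probe was well above background on 3 control arrays and on 1 isoproterenol array, replicate 1, so its slide 2 values are near background. Under normexp background correction the change was 0.87 (adjusted p = 0.0818). Without control replicate 2 or 3 the adjusted p was 0.0969 and 0.102, and without isoproterenol replicate 2 or 3 it was 0.0521 and 0.0648. The other dim probes did not pass and went both ways within slide 1. Those for NM_001034070 and NM_001034072 were at 0.85 and 0.50 there (adjusted p = 0.105 and 0.194), and those for NM_001034071 and NM_001034073 at −0.44 and −0.59 (adjusted p = 0.159 and 0.259). Over 6 arrays these 4 were at 0.34, 0.18, −0.18 and −0.34.

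Differences between isoforms within an array do not depend on a constant scaling of the array. The shift of slide 2 from the controls was not constant, however. Its median ran from −0.35 in the third 10% of signal from the dimmest to 0.70 in the brightest 10%. Pairs of unlike signal, such as Tpm4 minus Tpm1 and Tnnt1 minus Tnnt2, can still carry it. Over the alternative settings these 2 ranged from 0.19 to 1.02 and from −0.30 to 0.86. For 7 pairs of genes the difference of the brightest probes was compared between the groups by an exact two-sided permutation test, whose smallest p with 3 against 3 arrays is 0.1. No pair can pass 0.05 in this design. These differences are read only for their shift between the groups. Tnni1 minus Tnni3, the fetal against the adult inhibitory subunit, was −2.63 ± 0.14 (SD, n = 3) in the controls and −2.75 ± 0.17 with isoproterenol, a shift of −0.12 (exact p = 0.3, adjusted p = 0.42), and the groups overlapped. Tpm4 minus Tpm1 was −5.12 ± 0.04 and −4.67 ± 0.47, a shift of 0.45 without overlap (exact p = 0.1, adjusted p = 0.233). In that pair isoproterenol replicate 1 stood at −4.15 and replicates 2 and 3 at −5.08 and −4.78, so most of the shift came from the slide 1 array.

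Tnnt1 minus Tnnt2, the slow skeletal against the cardiac troponin T, shifted by 0.43, and Tnnc1 minus Tnnt2 by 0.44. In both pairs the groups did not overlap (exact p = 0.1 and adjusted p = 0.233 for each). Within slide 1 both shifts were 0.19. Tpm3 minus Tpm1 was at −0.63 (exact p = 0.2, adjusted p = 0.35) and −0.10 within slide 1. Tpm2 minus Tpm1 and Tnni3 minus Tnnt2 overlapped, with shifts of 0.0025 and −0.077 over 6 arrays (exact p = 1.0 and 0.9, adjusted p = 1.0 for both) and of 0.56 and −0.42 within slide 1.

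Other genes of the thin filament were taken from a list of the fast skeletal troponins, actins, proteins that cap, sever or assemble actin filaments, and myosin-binding proteins C, of which 21 of 27 were measured. Of the 21 genes 5 rose, 0 fell and 16 did not pass. Their median change was 0.50, against 0.06 for all probes and 0.50 for the brightest 10% of all probes. Within slide 1 the median of the 21 was 0.35, against 0.11 for all probes and 0.18 for the brightest 10%. Among named genes by their brightest probe 18.3% passed. The largest rises were those of Actb, cytoplasmic beta-actin, at 2.07 ± 0.42 (adjusted p = 0.0223), Acta2, smooth muscle actin, at 1.91 ± 0.50 (adjusted p = 0.0454), Tmod3, a tropomodulin that caps actin filaments bound by tropomyosin, at 1.37 ± 0.26 (adjusted p = 0.0184) and Cfl2, muscle cofilin, at 1.21 ± 0.22 (adjusted p = 0.0165). The fifth was Actg1, cytoplasmic gamma-actin. Within slide 1 these 4 genes were at 1.06, 1.16, 0.81 and 0.83, and none of them passed there, with limma's adjusted p = 0.0572, 0.319, 0.0525 and 0.0662. With slide as a block 4 of the 21 passed, against 7.04% of all probes, and these changes also rest on isoproterenol replicate 1 alone. Actb (limma's adjusted p = 0.04), Tmod3 (adjusted p = 0.0373) and Actg1 (adjusted p = 0.0407) were higher, and Mybpc3 (adjusted p = 0.0278) was lower. Mybpc3, cardiac myosin-binding protein C, was at −1.15 within slide 1 and at −0.39 over 6 arrays (adjusted p = 0.414). The fast skeletal troponins did not pass: Tnnt3 was at −2.998 ± 0.981 (adjusted p = 0.0793) and well above background on 1 isoproterenol array, Tnnc2 was at −0.58 and Tnni2 at 0.53. Within slide 1 these 3 were at −0.48, 0.54 and 0.46. Mybpc3, Tnnt3, Tnnc2 and Tnni2 are named after their values were seen.

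Factors that act on alternative exons of muscle transcripts formed another list, with 20 of 25 measured. Of the 20, 3 rose, 0 fell and 17 did not pass, a smaller share than the 18.3% of named genes, with a median of 0.11. With slide as a block 0 of the 20 passed, against 7.04% of all probes. The 3 were the serine-arginine-rich splicing factors Srsf2 at 1.66 ± 0.33 (adjusted p = 0.0204), Srsf1 at 1.01 ± 0.27 (adjusted p = 0.0468) and Srsf10 at 0.75 ± 0.17 (adjusted p = 0.0318). Within slide 1 they were at 0.94, 0.60 and 0.62, with adjusted p = 0.0795, 0.268 and 0.0961.

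Markers of the labelled cell type and of others were read on the same arrays. All 11 cardiomyocyte markers measured were well above background on all arrays. The summed signal of these markers, in multiples of the 75th percentile, ranged from 1253 to 1598 in the controls and from 1662 to 2398 with isoproterenol, and their median change was 0.27. Gata4 and Myh6 rose and Atp2a2, which returns calcium to the sarcoplasmic reticulum, fell by 0.91 (limma's adjusted p = 0.0272). Within slide 1 Pln and Mybpc3, named after their values were seen, fell by 1.24 and 1.15 (adjusted p = 0.0409 and 0.046), and the median of the 11 was 0.04. Of 10 fibroblast markers 2 rose and 4 fell, where 18.3% of all named genes passed by their brightest probe. The median change of the 10 was −0.48, and −0.84 within slide 1. The largest changes that passed were those of Lum (−1.60), Postn (−1.32), Col3a1 (−1.10) and Thy1 (1.06). The sum of the 10 ranged from 156 to 165 in the controls and from 133 to 178 with isoproterenol. Of 6 smooth muscle markers 2 rose, Acta2 and Tagln, and 1 fell, Smtn at −0.81, with a median change of 0.03. Mylk was at −0.45 and Myh11 at −0.27, neither of which passed and both named after their values were seen. The sum, in which bright genes weigh most, ranged from 86.5 to 152 in the controls and from 218 to 498 with isoproterenol. Endothelial markers (7 measured) ranged from 15.2 to 17.1 and from 14.3 to 15.8, and those of macrophages and blood (7 measured) from 51.3 to 65.4 and from 53.5 to 85.6. Fast skeletal markers (8 measured) ranged from 56.0 to 81.1 and from 28.4 to 94.7. In these lists the endothelial Kdr (−1.22) and Hbb of blood (−0.84) fell and the fast skeletal Myh1 (1.26) rose. No other gene of them passed. Kdr, Hbb and Myh1 were not well above background on all isoproterenol arrays. No marker of any list was below background on all controls. Tpm4 and Tpm2 are also made by fibroblasts and smooth muscle cells, and the part of such cells in their rise was not tested.

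The gene whose values over the 6 arrays lay closest to those of Tpm4, among 13192 named genes outside the family and after centring each on its mean, was Atf6, a sensor of endoplasmic reticulum stress, with a root mean square difference of 0.04 on the log2 scale. Baz1a, a chromatin remodelling subunit, and Or8c16c followed, both at 0.07. For the dim Tpm1 probe of NM_001301736 they were Nubp1 at 0.07, Rasl2-9 at 0.08 and Vom1r69 at 0.09. With 6 arrays and so many genes, near neighbours of this kind are a description only.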

How the data were processed

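Per the file headers, Agilent Feature Extraction 11.0.1.1 extracted the signals. The scanner files deposited by the authors give background-subtracted Cy3 intensity for 43040 spots per array. The authors also deposited an mRNA table of normalized log2 values, and no source used here names the tool. Since the spots are not named by gene, rows of the table were matched to probes by quantile-normalized values on the 4 slide 1 arrays, at a distance under 0.05 and under 0.25 of the next best, which matched 20639 of 20734 rows. All 20636 neighbouring pairs of matched rows, sorted by accession, followed the order of the probe numbers. RefSeq accessions were named through a GRCr8 gene table (13948 of 14757); the 5977 Ensembl rows are unnamed, so a member listed only there would be missed.

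Control and outlier spots were left out and spots of a probe averaged. The log2 signal minus each array's 75th percentile was fitted with limma 3.58.1 in R 4.3.3, two-sided, adjusted by Benjamini-Hochberg. Probes well above background on at least 3 arrays were tested, which kept all 20639. With 6 arrays, their number limits the precision. The fit was tested on simulated data. Normexp used the median signal, since the files hold no mean signal. Alternatives were other scalings, background, slide, filters and arrays left out. All member probes are named; of each other list the up to 4 genes with the largest change among those that passed, and for the 2 largest member changes the 3 nearest genes. The members and lists were chosen with earlier results of these data known.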

Additional observations from a re-analysis of the deposited data

How the results depend on the processing

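Of 26 member probes, 3 passed in the analysis reported. Normexp background correction gave 1, the filter on all arrays 5 of the 21 members it kept (34.3% of all probes kept), the replicate block 1, and slide as a block, slide 1 alone and slide 1 with quantile normalization (added after seeing the data) each gave 0. Leaving out 1 array gave 0 to 16. All mRNA probes gave 3284, against 1452 with slide as a block, 1079 on slide 1, 1413 with slide 1 quantile-normalized, 1481 with the replicate block, and 385 to 10684 without 1 array. The thin filament list gave 5, against 3 with quantile normalization, 3 in deposited values, 8 with the filter, 1 on slide 1, 1 with slide 1 quantile-normalized, 1 with the replicate block, and 0 to 13 without 1 array. The splicing list gave 3, against 1 with the percentile over detected probes, 0 with slide as a block, 0 in both slide 1 fits, 0 with the replicate block, and 0 to 9 without 1 array. The highest counts without 1 array, 16 members, 13 thin filament genes and 9 splicing genes, came without isoproterenol replicate 1. There 51.8% of all 20639 probes passed. With the filter on all arrays 34.3% of the probes kept passed. Of the 20639 probes 2875 passed with normexp and 1481 with the replicate block. Deviations of same-numbered replicates from their group means had correlations of 0.0046, 0.0513 and −0.0236. Slide also parts isoproterenol replicate 1 from replicates 2 and 3. These values therefore cannot show whether the numbers pair the samples.

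Signs turned as follows, and the cause was not tested. Quantile normalization and the deposited values gave Tnni1 −0.20, Tnni3 −0.32, Tpm1 NM_001034069 −0.33, NM_001301336 −0.090, NM_001301342 −0.13, and Tpm3 NM_001301286 −0.40 and NM_057208 −0.28, with Tnnt2 at −0.20 and −0.19. The percentile over detected probes gave Tnni1 −0.016, Tpm1 NM_001034069 −0.16 and NM_001034072 −0.059, and Tpm3 NM_001301286 −0.13 and NM_057208 −0.036. Slide as a block and slide 1 alone gave Tnni1 −0.23, Tnni3 −0.30, Tnnt1 NM_001277262 −0.032, Tpm1 NM_001034068 −0.0054, NM_001034069 −0.19 and NM_001034074 0.089, and Tpm3 NM_001301285 0.37. Slide 1 quantile-normalized gave Tnni1 −0.36, Tnni3 −0.44, Tnnt1 NM_001277262 −0.041, Tnnt2 −0.024, Tpm1 NM_001034068 −0.14, NM_001034069 −0.32 and NM_001301336 −0.10, and Tpm3 NM_001301285 0.30 and NM_001301286 −0.13. Normexp gave Tnnt1 NM_134388 0.39, Tpm1 NM_001034069 −0.058 and NM_001034071 0.033, and Tpm3 NM_001301285 0.46 and NM_001301286 −0.10. Without 1 array, Tpm1 NM_001034069 ranged from −0.17 to 0.21, Tpm3 NM_001301285 from −0.48 to 0.0059 and NM_001301286 from −0.10 to 0.21. Tnni1 minus Tnni3 was 0.12 with quantile normalization and in deposited values, 0.071 on slide 1 and 0.075 with slide 1 quantile-normalized. Tnnt1 minus Tnnt2 was −0.30 with the mean over probes. Tpm2 minus Tpm1 was −0.022 with normexp and −0.28 to 0.26 without 1 array, and Tnni3 minus Tnnt2 was −0.19 to 0.092. On slide 2 the lower signal over background limits dim probes.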
